A study of Mus musculus with 57 samples.

Results

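Thymus of clinically healthy mice that carry the NUP98-HOXD13 fusion gene (NHD13) was compared with wild-type thymus. The 3 arrays titled as NHD13 thymus and the 7 titled as wild-type thymus were taken from their titles, which makes 10 of the 57 arrays of a study of 2 leukaemia-prone mouse lines. The NHD13 mice carry the transgene under vav, a promoter active throughout the blood-forming system, so thymocytes and other blood cells of the organ can express it, while the thymic epithelium is outside the blood lineage. A further 4 thymuses came from mice with a vav-driven CALM-AF10 fusion (CA10), also without clinical signs of leukaemia. Wild-type tissue came from age-matched littermates where possible. No mouse was on a treatment, and the sources used here name no age, founder line or strain for the thymus donors. Each array is labelled as a numbered sample, and nothing in the labels says that an array was 1 animal, so the p-values measure the spread between these samples. Levels are log2 RMA signals of Affymetrix probe sets, on which a difference of 1 is a doubling of signal.

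NUP98-HOXD13 joins a nucleoporin to the DNA-binding homeodomain of a posterior HOX protein and is a known driver of myelodysplasia and leukaemia. HOX proteins set positional identity in the embryo and, in blood, are expressed in stem and progenitor cells and shut down as cells mature. They bind DNA together with PBX and MEIS cofactors. In the thymus, Kit-positive progenitors rearrange the T cell receptor beta chain, pass the pre-T cell receptor checkpoint, become CD4 and CD8 double-positive thymocytes, and are then selected. Selection signals switch on Cd69, Egr2 and Cd5, and the survivors acquire Ccr7 and Gimap genes before they leave.

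Not all arrays held clean thymus. The array labelled wild-type thymus 2 had Rag1, which encodes the recombinase of lymphocyte receptor genes, at 4.06, where the other 6 wild-type arrays lay between 12.26 and 13.10. Ccl25 and Prss16, products of the thymic epithelium, were at 5.50 and 5.30 on it, and the lymph node and spleen genes Glycam1 and Cxcl13 at 12.19 and 11.09. Its correlation over all tested genes with wild-type thymus 1, 3, 4, 5 and 7 was 0.81 to 0.87, where these 5 correlated at 0.98 to 0.99 with each other. Wild-type thymus 6 had a narrower spread of signals, with a 75th percentile of 7.03 against 7.39 to 7.68 on the other 13 thymus arrays. Signal of other organs was not limited to that array. NHD13 thymus 2 carried the liver gene Alb at 13.69 and CA10 thymus 3 the airway gene Scgb1a1 at 13.60. The heart gene Actc1 was at 11.48 on NHD13 thymus 2, 12.72 on CA10 thymus 3, 10.71 on wild-type thymus 2 and 9.30 on wild-type thymus 5, and at most 7.99 on the other 10 thymus arrays. CA10 thymus 3 also had Cxcl13 at 11.27, and Glycam1 was above 10 on NHD13 thymus 2 and CA10 thymus 3 as well. NHD13 thymus 1 and 2 were male and NHD13 thymus 3 female by Xist and Y-linked genes, and wild-type thymus 4 and 6 were female. The counts of genes called are given with all 7 wild-type arrays and without wild-type thymus 2 and 6, and a gene's value without them stands where its call changed. In whole tissue, fewer cells of a type and less RNA per cell cannot be told apart.

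Promoter sequences of genes that carry the comparison are shown first, because the genes that rose include HOX genes and a PBX cofactor whose binding motifs are known. They are from RefSeq on build GRCm38.p6 and run 5′ to 3′ on the gene's strand, ending shortly after the start site. Capitals mark the MEIS core motif TGACAG, in either orientation. The composite HOX-PBX motif TGATTNAT was searched as well, on both strands. Hoxa9 lies at chr6:52227321-52227620 on the minus strand, Hoxc4 at chr15:103034145-103034444 on the plus strand, Klhl4 at chrX:114474083-114474382 on the plus strand, and the Ddc start site shown, the one of 2 with more matches, at chr11:11890359-11890658 on the minus strand.
Hoxa9: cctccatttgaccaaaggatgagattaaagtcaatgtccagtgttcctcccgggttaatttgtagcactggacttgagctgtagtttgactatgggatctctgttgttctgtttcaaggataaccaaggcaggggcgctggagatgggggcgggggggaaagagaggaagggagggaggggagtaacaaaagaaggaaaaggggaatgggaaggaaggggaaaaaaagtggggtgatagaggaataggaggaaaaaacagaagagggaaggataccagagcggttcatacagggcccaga
Hoxc4: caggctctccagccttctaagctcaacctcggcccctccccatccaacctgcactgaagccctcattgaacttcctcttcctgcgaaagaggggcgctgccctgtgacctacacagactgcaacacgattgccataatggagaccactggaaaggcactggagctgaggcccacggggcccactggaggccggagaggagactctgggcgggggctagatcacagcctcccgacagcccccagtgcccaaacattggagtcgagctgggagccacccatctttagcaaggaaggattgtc
Klhl4: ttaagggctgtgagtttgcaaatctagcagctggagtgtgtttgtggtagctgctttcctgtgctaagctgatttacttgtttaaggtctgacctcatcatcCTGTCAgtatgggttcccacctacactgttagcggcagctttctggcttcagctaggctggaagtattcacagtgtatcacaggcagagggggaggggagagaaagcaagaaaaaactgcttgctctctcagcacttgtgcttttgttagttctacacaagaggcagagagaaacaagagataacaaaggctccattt
Ddc: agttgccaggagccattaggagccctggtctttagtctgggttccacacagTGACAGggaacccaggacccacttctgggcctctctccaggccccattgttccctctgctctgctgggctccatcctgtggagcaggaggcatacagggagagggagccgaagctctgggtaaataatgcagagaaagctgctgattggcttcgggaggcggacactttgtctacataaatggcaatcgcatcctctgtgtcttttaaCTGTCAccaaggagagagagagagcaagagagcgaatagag
Of the 15 largest rises described next, 12 had a promoter in the table. TGATTNAT was in the promoters of 0 of these 12 and in 3.22% of all 32851 promoters. TGACAG was in 2 of the 12, Klhl4 once and Ddc at 2 places, and in 19.2% of all promoters. Of the 15 largest falls, 9 had a promoter in the table, of which 3 (Dgka, Tesc and Bcl6) held TGACAG and 1 (Egr2) TGATTNAT. A gene was counted if any of its start sites matched, whereas the percentages of all promoters count each start site by itself. A match is only a match of letters in this window. The HOX-PBX motif had 0 matches in the Hoxa9 and Hoxc4 windows, which says nothing about sites elsewhere.

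The NHD13 thymuses differed from wild type in few genes by the test across all genes, and the changes ran in both directions. Of 15310 genes tested, 117 (0.764%) passed limma's moderated test at an adjusted p of 0.05, 61 of them higher (0.398%) and 56 lower (0.366%) in NHD13. Without wild-type thymus 2 and 6 the count was 610 (3.98%), with 198 higher (1.29%) and 412 lower (2.69%), and all 117 were among them. The median log2 difference over all genes was -0.00, and 0.01 without those 2 arrays. On 116 of the 117, no NHD13 array overlapped any wild-type array, where 3.68% of all genes had every NHD13 array above and 2.68% every NHD13 array below all wild-type arrays. The 117 were called on these same arrays, so their separation largely follows from the call and adds no support.

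HOX genes of the A and C clusters and the cofactor Pbx3 were higher in NHD13 thymus. Hoxa9, a transcription factor of blood stem and progenitor cells, was at 6.78, 8.35 and 11.66 on NHD13 thymus 1 to 3, against 3.59, 3.92 and 4.26 as the lowest, median and highest of the 7 wild-type thymuses. All NHD13 arrays were above all wild-type arrays, but they were also spread over more than 4 log2 units among themselves. The difference was 5.03 (SE 1.05, adjusted p = 0.0403). When 1 array was left out at a time, the call held without NHD13 thymus 1 (adjusted p = 0.0391) and without wild-type thymus 2 (adjusted p = 0.0281) and was lost without any of the other 8 arrays, with adjusted p of 0.058 to 0.192. A second Hoxa9 probe set, dimmer on average, differed by 1.34 (SE 0.58, adjusted p = 0.443).

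Hoxa7, its neighbour in the cluster, was at 8.82, 8.33 and 8.26 in NHD13 thymus, against 5.67 to 6.83 (median 6.36) in wild type. The NHD13 arrays lay close together, and the difference of 2.18 (SE 0.23, adjusted p = 0.000344) was smaller than that of Hoxa9 and varied less between arrays. Hoxa10 was at 3.79, 4.27 and 8.40 in NHD13 thymus, against 3.36 to 3.74 in wild type. It was high only on NHD13 thymus 3, where Hoxa9 was highest too, and its difference of 1.94 (SE 0.87) had an adjusted p of 0.407. Hoxa5 averaged 7.51 ± 0.34 in NHD13 thymus (SD, n = 3) and 7.44 ± 1.17 in wild type (SD, n = 7), with 8.36 and 9.72 on wild-type thymus 2 and 6. Its other probe set differed by 2.34 (SE 0.59, adjusted p = 0.12). Of the 8 HOXA genes tested, 2 passed higher and 0 lower, with a median difference of 0.51 against -0.00 over all genes. The share of all genes that passed higher was 0.398%.

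Of the C cluster, Hoxc4, Hoxc6 and Hoxc8 rose. Hoxc4 was at 7.93, 7.81 and 9.12 in NHD13 thymus, against 4.57 to 5.95 (median 4.98) in wild type, a difference of 3.16 (SE 0.43, adjusted p = 0.00229). Hoxc6 was at 7.70, 7.91 and 8.74 in NHD13 thymus, against 4.91 to 6.02 (median 5.53) in wild type, a difference of 2.62 (SE 0.30, adjusted p = 0.00066), while another Hoxc6 probe set differed by 0.24 (adjusted p = 0.663). Hoxc8 was at 5.93, 6.48 and 6.29 in NHD13 thymus, against 3.38 to 3.96 (median 3.58) in wild type, a difference of 2.64 (SE 0.20, adjusted p = 4.86e-05). For all 3 genes every NHD13 array exceeded every wild-type array by more than the spread within either group. Hoxc5 differed by 0.75 (SE 0.29, adjusted p = 0.315) on its brightest probe set, where wild-type thymus 6 read 5.69, and by 0.96 (adjusted p = 0.048) without wild-type thymus 2 and 6. Its other probe sets differed by 2.82 (adjusted p = 0.0251) and 1.81 (adjusted p = 0.0291). Of the 5 HOXC genes tested, 3 passed higher with all wild-type arrays and 4 without wild-type thymus 2 and 6, with median differences of 2.62 and 2.71. The share of all genes that passed higher was 0.398% and 1.29% in these settings. Of the 6 HOXB and 3 HOXD genes tested, limma called 0 in either direction, with medians of 0.05 and -0.09. At an unadjusted p under 0.05 there were 1 and 0.

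Pbx3, a TALE homeodomain protein that binds DNA with HOX proteins, was at 10.91, 10.15 and 11.37 in NHD13 thymus, against 4.29 to 6.86 (median 6.01) in wild type. The gap between the lowest NHD13 and the highest wild-type array was larger than the range within either group, and the difference was 4.76 (SE 0.45, adjusted p = 0.000205). A second probe set differed by 3.73 (SE 0.21, adjusted p = 2.55e-06). Meis1, the cofactor most often paired with Hoxa9 in leukaemia, was at 6.78, 7.27 and 5.09 in NHD13 thymus, against 5.65 to 6.68 in wild type, and its difference of 0.30 (SE 0.56) had an adjusted p of 0.895. Pbx2 had a difference of -0.80 (adjusted p = 0.239), and fell by 1.03 (adjusted p = 0.0263) without wild-type thymus 2 and 6. Of the 8 HOX cofactor genes tested, only Pbx3 rose, and the list's median was -0.11. The fusion partners themselves did not stand out on their mouse probe sets. Nup98 averaged 8.52 ± 0.12 in NHD13 thymus (SD, n = 3) and 8.45 ± 0.53 in wild type (SD, n = 7), and Hoxd13 4.89 ± 0.39 in NHD13 thymus and 4.87 ± 0.43 in wild type. Whether these probe sets can read the transgene was not tested.

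**Figure D1:**
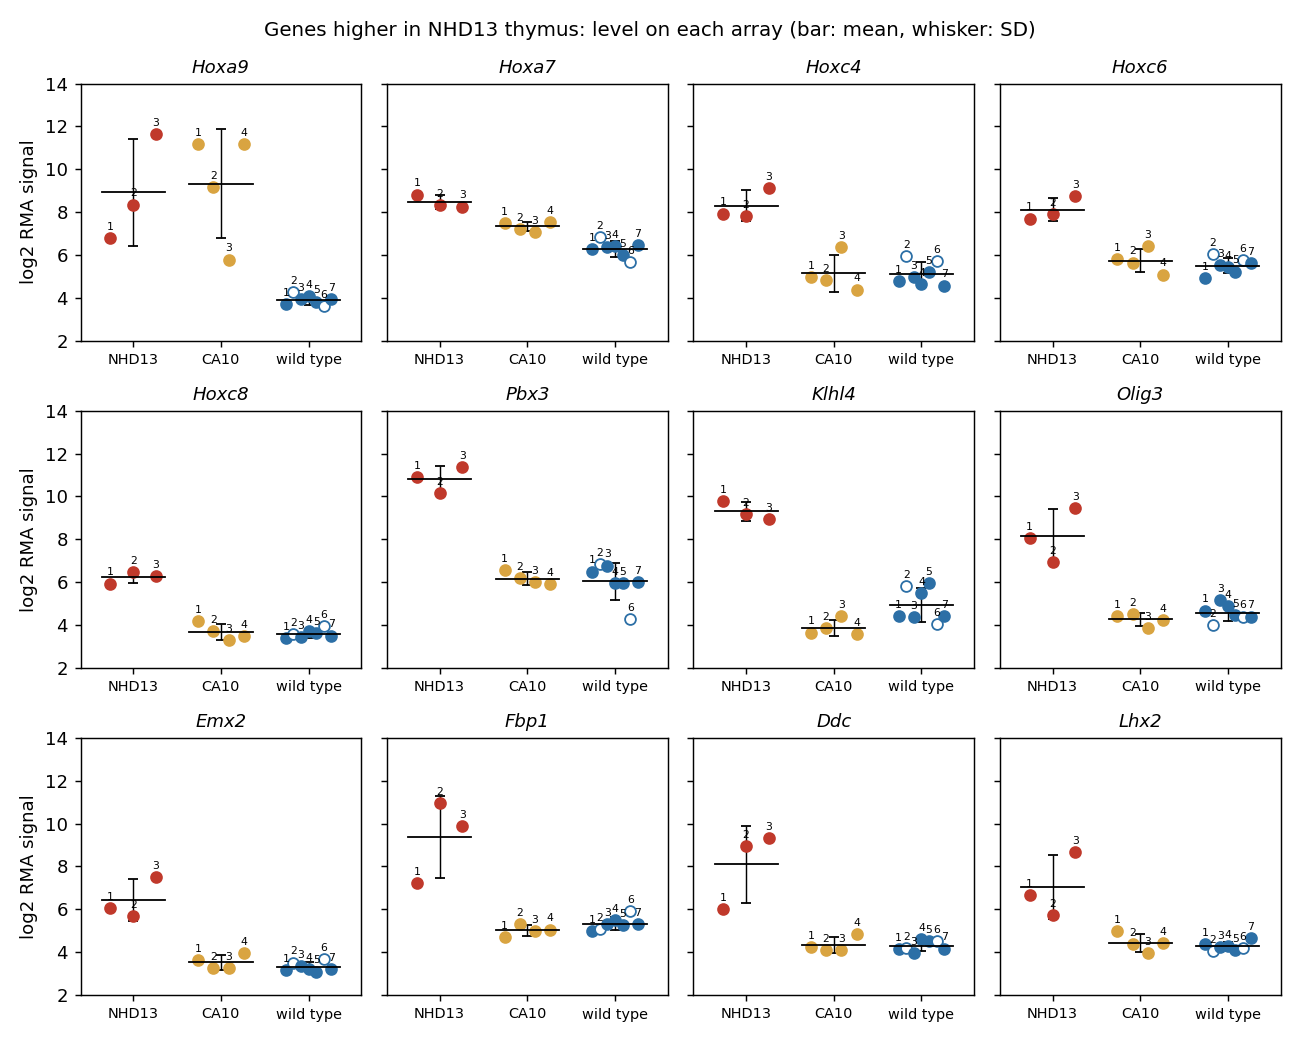
Level of 12 genes that rose in NHD13 thymus, as log2 RMA signal on each array (numbers are the labelled replicates), for NHD13 (n = 3), CA10 (n = 4) and wild-type thymus (n = 7), with the group mean as a bar and the SD as a whisker. Open circles are wild-type thymus 2 and 6. Hoxa9 is high in both transgenic lines and scattered within each, whereas Hoxc8, Pbx3 and Klhl4 are high on all 3 NHD13 arrays only.

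Several of the largest rises were genes of other organs. Olig3, a basic helix-loop-helix factor of the embryonic spinal cord, was at 8.05, 6.93 and 9.44 in NHD13 thymus, against 3.99 to 5.16 (median 4.44) in wild type, a difference of 3.58 (SE 0.40). Emx2, a homeobox gene of the forebrain and urogenital tract, was at 6.06, 5.69 and 7.52 in NHD13 thymus, against 3.09 to 3.67 (median 3.20) in wild type, a difference of 3.12 (SE 0.31). The 3 NHD13 arrays kept the same order in both genes, with NHD13 thymus 3 highest and 2 lowest. The LIM-homeobox gene Lhx2 was at 6.67, 5.74 and 8.66 in NHD13 thymus, against 4.04 to 4.65 in wild type, and the homeobox gene Dlx1 at 6.10, 5.41 and 8.30, against 3.59 to 4.38 in wild type. The difference was 2.76 for Lhx2 (SE 0.44) and 2.72 for Dlx1 (SE 0.46), again with that order of arrays. Outside NHD13 thymus, Olig3, Emx2, Lhx2 and Dlx1 were above the filter on low signals on 1, 0, 2 and 0 arrays, where 3 were needed. They could be tested only because they were high in NHD13 thymus, so their values are given as a description.

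Klhl4, a Kelch-like gene on the X chromosome, was at 9.78, 9.17 and 8.94 in NHD13 thymus, against 4.03 to 5.95 (median 4.43) in wild type. It was high on the male and the female NHD13 arrays alike, and it rose by 4.37 (SE 0.41, adjusted p = 0.000205). Ddc, which makes dopamine and serotonin, was at 6.01, 8.96 and 9.31 in NHD13 thymus, against 3.97 to 4.62 (median 4.17) in wild type. Its difference was 3.79 (SE 0.51, adjusted p = 0.00229), and its other probe set differed by -0.23 (SE 0.26, adjusted p = 0.85). Fbp1, the gluconeogenic fructose-1,6-bisphosphatase, was at 7.24, 10.95 and 9.90 in NHD13 thymus, against 4.98 to 5.91 (median 5.29) in wild type, a difference of 4.04 (SE 0.53, adjusted p = 0.00213). Fbp1 is a liver enzyme and was highest on NHD13 thymus 2, the array with liver signal. On NHD13 thymus 3, Fbp1 was at 9.90 and Alb at 3.97. The part of liver signal in the difference was not tested.

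Leaving out 1 array at a time lost the calls of Klhl4, Ddc and Fbp1 in 0 of 10 settings.

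The remaining genes among the 15 largest rises were Myl10, a myosin light chain, Plagl1, an imprinted zinc-finger gene, Aldh1b1, a mitochondrial aldehyde dehydrogenase, and Smim5, a small membrane protein. Myl10 was at 9.14, 10.92 and 10.75 in NHD13 thymus, against 5.21 to 7.87 in wild type (difference 3.57, SE 0.72, adjusted p = 0.0341). Plagl1 was at 10.85, 8.53 and 11.83 in NHD13 thymus, against 6.71 to 8.09 in wild type (difference 3.05, SE 0.54, adjusted p = 0.0189), but its 2 other probe sets, with differences of 1.62 and 0.18, did not pass. Aldh1b1 and Smim5 differed by 2.92 (adjusted p = 0.00549) and 2.64 (adjusted p = 0.00161). Of 14 neural and developmental genes tested, 3 were called higher, Klhl4, Lhx2 (which passed the filter only through NHD13 thymus) and the tyrosine phosphatase Ptpn13 (difference 1.80, SE 0.35, adjusted p = 0.0299), and 0 lower. The other Ptpn13 probe set differed by 0.22 (adjusted p = 0.786). Of all 15310 genes, 0.398% were called higher. The median of the list was 0.68, a description, since it includes Lhx2, which entered through NHD13 thymus. Leaving out 1 array at a time lost the calls of Myl10 and Ptpn13 in 7 of 10 settings each and that of Plagl1 in 2. Dach2, a further X-linked member of that list, was at 5.57, 6.15 and 9.62 in NHD13 thymus, against 4.26 to 4.69 in wild type, with an adjusted p of 0.0552.

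Of the 1104 tested genes whose probe set lay below the 40th percentile of its array on all 7 wild-type thymuses, 9 were called higher in NHD13. Besides 2 predicted or clone symbols they were Hoxa9, Ddc, Emx2, Lhx2, Dlx1, Hoxc8 and B4galt4, a galactosyltransferase with a difference of 1.26 (SE 0.19, adjusted p = 0.00733). Of the 9, 5 passed the filter on low signals only through the NHD13 thymuses, Emx2, Lhx2 and Dlx1 among them, so that they could be tested only because they were high there. The count of 9 is therefore a description, beside 61 of all 15310 genes called higher (0.398%).

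Some genes of late thymocyte maturation were lower in NHD13 thymus. Cd69, an early marker of positive selection, was at 6.10, 6.27 and 4.42 in NHD13 thymus, against 7.34 to 9.34 (median 8.94) in wild type. The lowest wild-type array was wild-type thymus 2, and it still exceeded every NHD13 array. Cd69 fell by 3.22 on the log2 scale (SE 0.60, adjusted p = 0.025). Egr2, a zinc-finger factor induced by T cell receptor signals, was at 4.48, 5.08 and 5.20 in NHD13 thymus, against 6.11 to 7.96 (median 7.75) in wild type, a difference of -2.54 (SE 0.50, adjusted p = 0.0319). Its relative Egr1 was at 7.77, 8.31 and 6.53 in NHD13 thymus, against 8.30 to 10.42 in wild type (difference -2.32, SE 0.44, adjusted p = 0.0276), and overlapped wild type only through wild-type thymus 2.

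Ccr7, the chemokine receptor that draws selected thymocytes into the medulla, was at 5.93, 7.12 and 5.49 in NHD13 thymus, against 8.0 to 9.30 (median 8.95) in wild type, a difference of -2.66 (SE 0.43, adjusted p = 0.0104). Gimap6, a GTPase of mature lymphocytes, was at 6.91, 7.60 and 5.50 in NHD13 thymus, against 9.05 to 10.05 (median 9.60) in wild type, a difference of -2.93 (SE 0.39, adjusted p = 0.00229). The named falls held 3 more Gimap genes, Gimap8, Gimap7 and Gimap4, with differences of -2.73, -2.18 and -1.93 and adjusted p of 0.00898, 0.0415 and 0.0469. All 4 lie on chromosome 6, and all were lowest on NHD13 thymus 3. Leaving out 1 array at a time lost the call of Cd69 in 6 of 10 settings, of Egr2 in 8, of Ccr7 in 2, of Gimap4 and Gimap7 in 7 each and of Egr1 in 7, with adjusted p up to 0.192, and those of Gimap6 and Gimap8 in 0. Of the 18 mature thymocyte genes tested, 5 fell (Ccr7, Cd69, Egr2, Gimap4, Gimap6) and 0 rose, with a median of -1.14. The other 13 did not pass. Among them, Il7r, Klf2, S1pr1 and Bcl2 had differences of 0.30, -0.53, -0.59 and -0.62, with adjusted p of 0.845, 0.78, 0.771 and 0.738. Without wild-type thymus 2 and 6, 7 fell, Cd5 (-2.11, adjusted p = 0.0278) and Cd6 (-1.65, adjusted p = 0.048) in addition. The share of all genes called lower was 0.366% with all wild-type arrays and 2.69% without wild-type thymus 2 and 6.

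Of the 14 double-positive genes tested, 1 fell with all 7 wild-type arrays and 7 without wild-type thymus 2 and 6, and 7 passed in neither setting. The share of all genes called lower was 0.366% and 2.69% in these settings. Cd2, an adhesion molecule of thymocytes and T cells, was at 7.01, 7.41 and 5.63 in NHD13 thymus, against 8.78 to 10.50 (median 10.18) in wild type, and fell by 3.26 (SE 0.48, adjusted p = 0.00549). It was the one that fell with all 7, where the median of the list was -1.06. The 7 without wild-type thymus 2 and 6 were Cd2, Cd4, Cd8a, Cd8b1, Ccr9, Cd28 and Bcl2l1, with 0 higher and a median of -1.29. Ly6d, Aqp11 and Tcf12 had differences of 1.21, 0.42 and 0.38 with all arrays, with adjusted p of 0.347, 0.606 and 0.827. Cd4 was at 9.29, 8.10 and 9.49 in NHD13 thymus, against 11.02 to 11.49 on wild-type thymus 1, 3, 4, 5 and 7, with 8.74 on wild-type thymus 2 and 10.76 on wild-type thymus 6. Its difference was -1.91 (SE 0.54, adjusted p = 0.136) with all arrays and -2.35 (SE 0.37, adjusted p = 0.00723) without those 2.

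The CD8 genes differed among the NHD13 arrays. Cd8a was at 9.94, 8.36 and 6.67 in NHD13 thymus, against 11.76 to 12.01 on wild-type thymus 1, 3, 4, 5 and 7. Cd8b1, which encodes the other chain of the coreceptor, was at 10.63, 8.78 and 6.25, against 12.30 to 12.60 on the same 5 wild-type arrays. Both chains had the same order over the NHD13 arrays, with NHD13 thymus 3 lowest, although Cd4 was highest there. Without wild-type thymus 2 and 6 the differences were -3.56 (SE 0.62, adjusted p = 0.0109) and -3.87 (SE 0.75, adjusted p = 0.0166). With all 7 they were -2.78 (adjusted p = 0.204) and -3.12 (adjusted p = 0.18), where wild-type thymus 2 read 7.54 and 8.11. Ccr9, a chemokine receptor for Ccl25, differed by -2.31 (adjusted p = 0.0223) and Cd28, a costimulatory receptor, by -2.73 (adjusted p = 0.0139) without those 2 arrays.

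**Figure D2:**
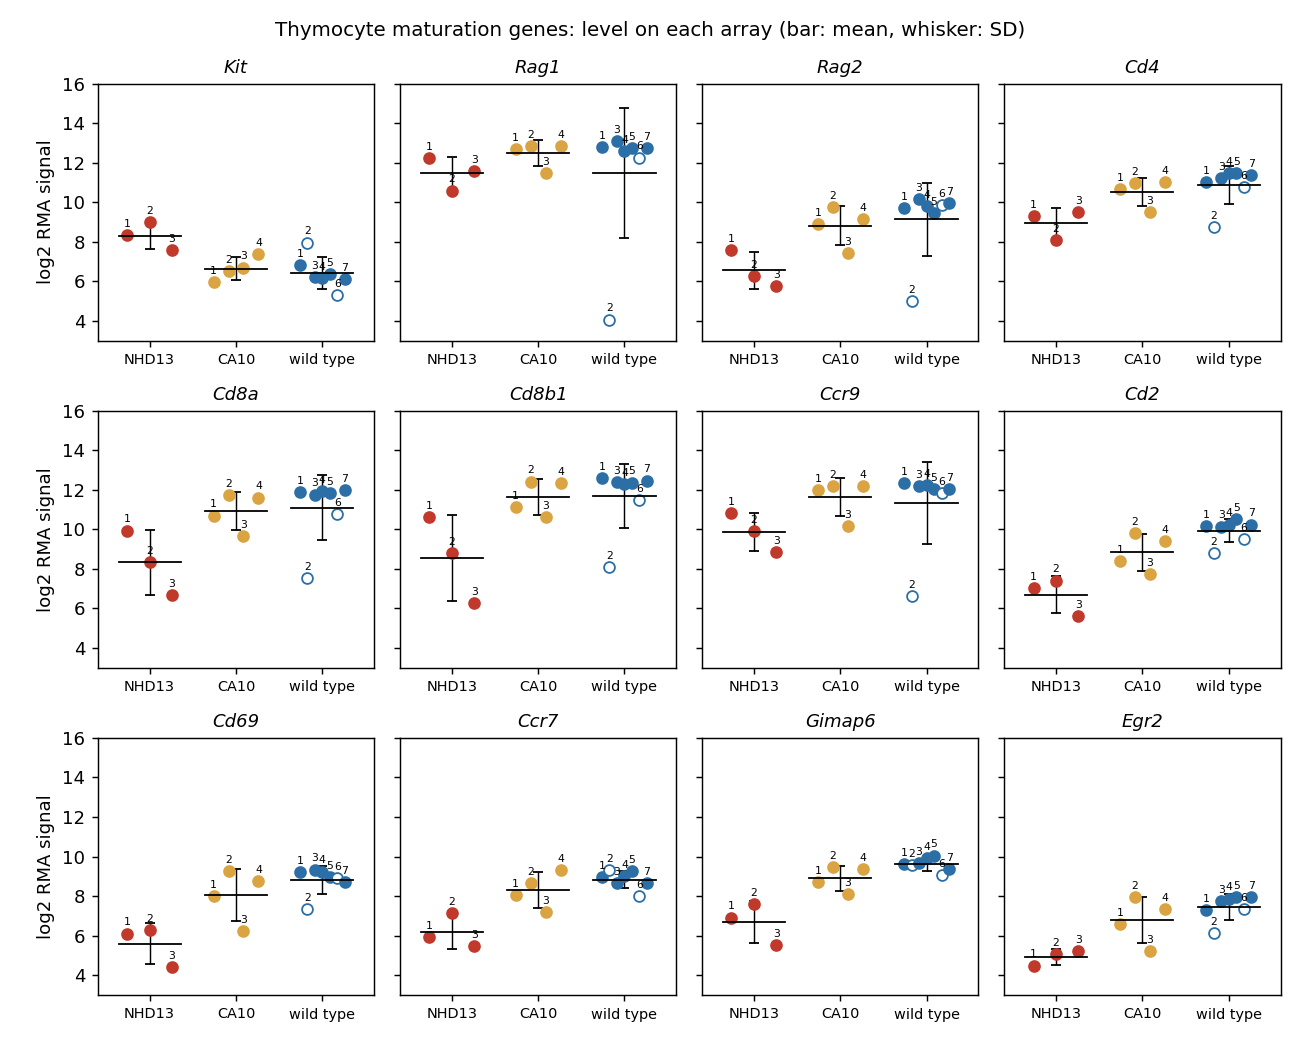
Level of 12 thymocyte genes, in rough order of the stage at which they act, as log2 RMA signal on each array for NHD13 (n = 3), CA10 (n = 4) and wild-type thymus (n = 7), with mean and SD. Open circles are wild-type thymus 2 and 6. The 3 NHD13 arrays sit below wild-type thymus 1, 3, 4, 5 and 7 for every gene but Kit, which is above them.

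Earlier stages showed a mixed picture. Rag2, the partner of Rag1, was at 7.59, 6.28 and 5.77 in NHD13 thymus, against 9.47 to 10.16 on wild-type thymus 1, 3, 4, 5 and 7, and fell by 3.27 (SE 0.49, adjusted p = 0.00549) without wild-type thymus 2 and 6. With all 7 the adjusted p was 0.261, since wild-type thymus 2 read 4.99. Rag1 was at 12.24, 10.59 and 11.58 in NHD13 thymus, and its difference without those arrays, -1.32, had an adjusted p of 0.0696. Ptcra, the pre-T cell receptor alpha chain, was at 8.53, 6.19 and 7.92 in NHD13 thymus, against 7.10 to 8.15 on the same 5 wild-type arrays. Its groups overlapped, with a difference of -0.10 (SE 0.61, adjusted p = 0.956). Of the 14 pre-T genes tested, limma called 0 with all wild-type arrays (2 at an unadjusted p under 0.05) and only Rag2 without those 2.

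Kit, the stem cell factor receptor of the earliest thymic progenitors, was at 8.32, 9.0 and 7.60 in NHD13 thymus, against 6.11 to 6.82 on wild-type thymus 1, 3, 4, 5 and 7, a difference of 1.97 (SE 0.34, adjusted p = 0.0109). With all 7, of which wild-type thymus 2 read 7.96, it was 1.88 (SE 0.47, adjusted p = 0.085), and 0.53 (adjusted p = 0.437) on the other Kit probe set. Il2ra, expressed by progenitors and pre-T cells, was at 8.83 and 8.72 on NHD13 thymus 1 and 2 and at 4.85 on NHD13 thymus 3, against 6.40 to 6.88 on those 5 wild-type arrays. Erg and Nfe2, factors of progenitor and megakaryocyte cells, split the same way. Nfe2 was at 7.24 and 8.77 on NHD13 thymus 1 and 2 and at 4.76 on NHD13 thymus 3, against 4.13 to 5.96 on the 7 wild-type arrays, and Erg at 7.23, 7.58 and 4.72, against 5.01 to 6.78 in wild type. Il2ra, Erg and Nfe2 did not pass (adjusted p = 0.672, 0.496 and 0.176). Other members of the early progenitor list were flat or lower. Flt3 was at 6.48, 6.17 and 6.43 in NHD13 thymus, below the 6.70 to 7.74 of all wild-type arrays (difference -0.88, adjusted p = 0.0908). Lmo2, Tal1, Spi1, Gata2 and Mef2c had differences of 0.07, -0.03, -0.21, -0.36 and -0.68 and did not pass. Of the 17 early progenitor genes tested, limma called 0 with all wild-type arrays (3 higher and 1 lower at an unadjusted p under 0.05) and only Kit without wild-type thymus 2 and 6, with medians of 0.20 and 0.36.

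Few components of the T cell receptor and few T lineage factors were called lower in NHD13 thymus. Every NHD13 array lay below wild-type thymus 1, 3, 4, 5 and 7 for 6 of the 13 receptor complex genes and 9 of the 16 lineage factors. That held for 1974 of all 15310 genes. Of the 13 receptor complex genes tested, only Txk, a Tec-family kinase, passed, and only without wild-type thymus 2 and 6 (difference -2.99, SE 0.51, adjusted p = 0.0107). Cd3d was at 11.73, 10.78 and 10.52 in NHD13 thymus, against 12.23 to 12.63 on wild-type thymus 1, 3, 4, 5 and 7, with an adjusted p of 0.072. Of the 16 lineage factors, Ikzf3 (-2.05, adjusted p = 0.0196) and Satb1 (-1.79, adjusted p = 0.0139), both chromatin regulators of lymphocytes, fell without those 2 arrays. In that setting 2.69% of all genes were called lower. Bcl11b, which holds T cell identity, was at 10.83, 10.57 and 10.78 in NHD13 thymus, against 11.96 to 12.32 on the same 5, with an adjusted p of 0.127. With all 7 wild-type arrays limma called 0 genes of either list, with 3 receptor genes and 2 factors lower at an unadjusted p under 0.05. Of the 7 gamma-delta T genes it called 0 in either setting, with 2 higher and 1 lower unadjusted. The death receptor Fas was at 7.70, 7.08 and 6.72 in NHD13 thymus, against 7.62 to 9.66 in wild type, and fell by 2.15 (adjusted p = 0.00397) without wild-type thymus 2 and 6.

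**Figure D3:**
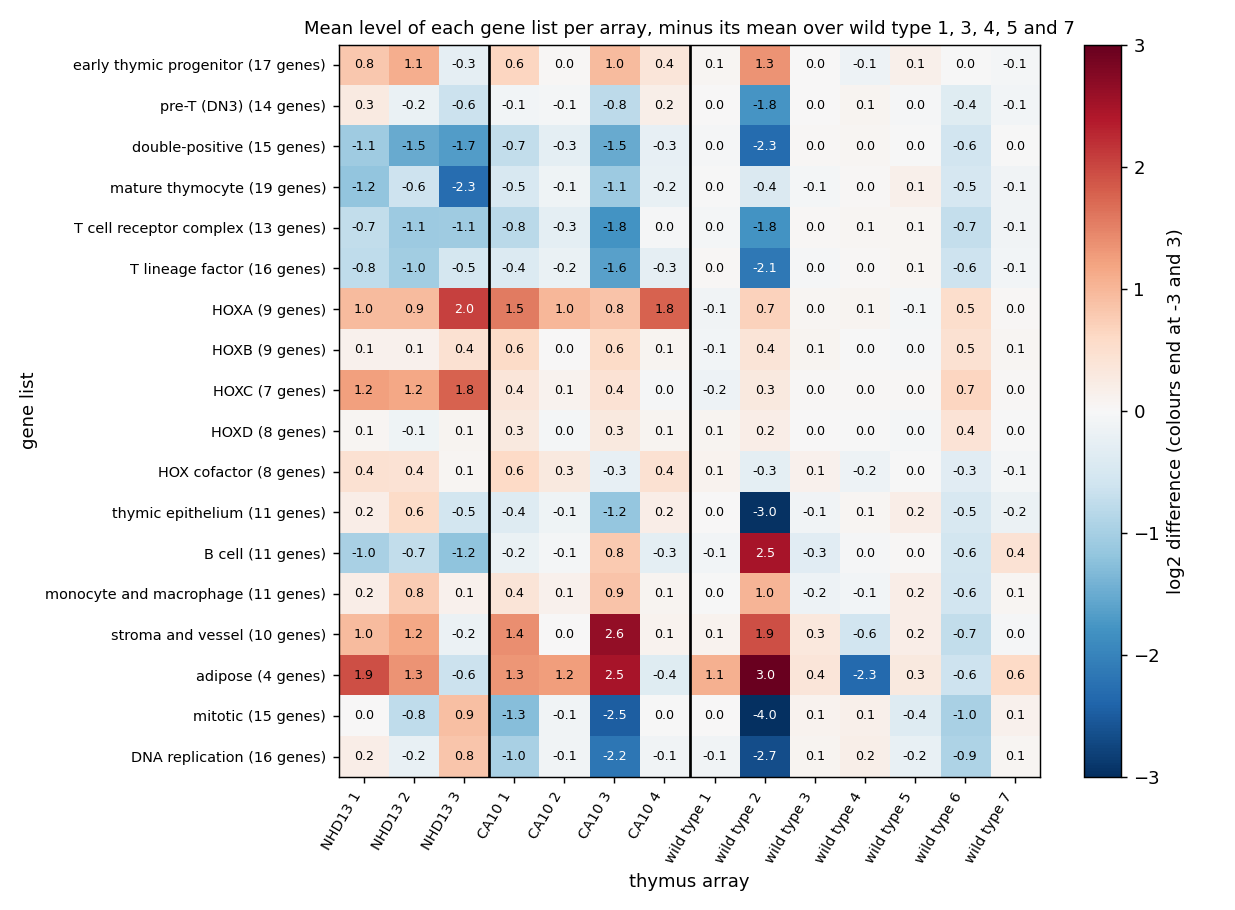
Mean level of 18 gene lists on each of the 14 thymus arrays, minus the list's mean over wild-type thymus 1, 3, 4, 5 and 7, in log2 units, with NHD13 at the left, CA10 in the middle and wild type at the right. The gene counts beside the lists include members below the filter on low signals, which were not tested. The double-positive list is at -1.07, -1.50 and -1.67 on the NHD13 arrays, the HOXC list at 1.23, 1.16 and 1.77, and wild-type thymus 2 stands apart in most lists.

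B cell genes were among the other falls. Ms4a1, which encodes the B cell antigen CD20, was at 4.13, 4.89 and 4.03 in NHD13 thymus, against 6.28 to 10.53 (median 7.68) in wild type, a difference of -3.41 (SE 0.68, adjusted p = 0.0319). The highest wild-type value was that of wild-type thymus 2, and the next highest was 7.92. Ighm, the immunoglobulin heavy chain, was at 10.29, 10.56 and 9.31 in NHD13 thymus, against 11.27 to 12.92 in wild type (difference -2.28, SE 0.34, adjusted p = 0.00549), and 1 of its 10 other probe sets passed. Cd79a, a B cell receptor component, was at 5.33, 5.57 and 5.51 in NHD13 thymus, against 6.90 to 8.09 on wild-type thymus 1, 3, 4, 5 and 7, and fell by 1.99 (adjusted p = 0.0109) when these were the comparison. Of the 11 B cell genes tested, 1 fell with all wild-type arrays and 5 without wild-type thymus 2 and 6. The share of all genes called lower was 0.366% and 2.69% in these settings. The mean of the B cell list, relative to wild-type thymus 1, 3, 4, 5 and 7, was -1.20 to -0.74 on the NHD13 arrays and -0.34 to 0.43 on those 5 wild-type arrays, with 2.47 on wild-type thymus 2. The part of B cell content in the falls of genes that B cells share with thymocytes was not tested.

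Of the remaining named falls, Ccl22, a chemokine of dendritic cells and medullary epithelium, was at 5.46, 5.92 and 5.57 in NHD13 thymus, against 7.82 to 8.69 in wild type (difference -2.50, SE 0.30, adjusted p = 0.00104). Tesc, a calcium-binding protein, was at 6.30, 6.17 and 5.74 in NHD13 thymus, against 8.02 to 8.65 in wild type (difference -2.27, SE 0.23, adjusted p = 0.00028). Bcl6, a transcriptional repressor of lymphocytes, was at 7.55, 7.38 and 6.50 in NHD13 thymus, against 8.93 to 9.51 in wild type (difference -2.18, SE 0.24, adjusted p = 0.000547). Second probe sets differed by -1.28 for Bcl6 (adjusted p = 0.0894), -1.42 for Gimap7 (adjusted p = 0.214) and -1.56 for Gimap4 (adjusted p = 0.167). Those of Ms4a1 and Egr2 differed by -2.74 (adjusted p = 0.159) and -2.62 (adjusted p = 0.0908). The calls of Bcl6, Gimap7, Gimap4, Ms4a1 and Egr2 thus each rest on 1 probe set. Dgka, which dampens T cell receptor signals, Ltb, a cytokine of lymphoid tissue, and Trav9d-3, a variable segment of the T cell receptor alpha chain, fell by 2.69, 2.37 and 2.21, with adjusted p of 0.025, 0.0222 and 0.0468. The probe sets of Trav9d-3 may be shared by close copies of the segment, so that identity is uncertain. Leaving out 1 array at a time lost the calls of Dgka, Ltb and Trav9d-3 in 6, 5 and 9 of 10 settings, and that of Ms4a1 in 7.

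Lists of other cells held few called genes. Of the 11 thymic epithelium genes, 10 stroma and vessel genes, 15 mitotic genes and 16 DNA replication genes, limma called 0 in either direction, with or without wild-type thymus 2 and 6. With all 7 wild-type arrays, 1 replication gene and 0 of the others had an unadjusted p under 0.05. Of the 11 monocyte and macrophage and 7 dendritic cell genes, limma called 0 with all 7 wild-type arrays (2 and 1 higher, 0 and 2 lower at an unadjusted p under 0.05). Without wild-type thymus 2 and 6 it called Cd68, a macrophage lysosomal protein, higher by 0.93 (adjusted p = 0.041) and Bst2, a surface protein of plasmacytoid dendritic cells, higher by 0.78 (adjusted p = 0.0474). Of the 8 neutrophil, 7 erythroid, 8 NK and 8 megakaryocyte and mast cell genes it called 0 in either setting, with 0, 2, 0 and 0 higher and 0, 0, 1 and 1 lower unadjusted with all 7. Psmb11, the thymoproteasome subunit of cortical epithelium, was at 9.87, 10.58 and 7.91 in NHD13 thymus, against 7.40 to 8.99 on wild-type thymus 1, 3, 4, 5 and 7. The mitotic list stood at 0.01, -0.77 and 0.90 on NHD13 thymus 1 to 3, relative to those 5 arrays, and was highest on NHD13 thymus 3.

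The comparison with the other transgenic line asked which changes the NHD13 thymuses did not share with CA10 thymuses. It does not use the wild-type means, but all groups share 1 estimate of the spread. Of 15310 genes, 33 passed (0.216%), 29 higher in NHD13 (0.189%) and 4 lower (0.0261%), and 155 passed when wild-type thymus 2 and 6 were left out of the spread estimate. Between CA10 and wild-type thymus limma called 0 genes, with 520 at an unadjusted p under 0.05. Pbx3 was 4.65 higher in NHD13 than in CA10 thymus (SE 0.49, adjusted p = 0.000937), where the CA10 arrays read 5.90 to 6.55, and Klhl4 5.43 higher (SE 0.46, adjusted p = 0.000125), where they read 3.58 to 4.40. Fbp1 and Ddc were higher by 4.35 and 3.76, with adjusted p of 0.00637 and 0.0113, and Olig3, which passed the filter only through NHD13 thymus, by 3.88. These genes were chosen as the largest rises on the same NHD13 arrays, so their calls against CA10 are no independent support. The HOXC genes, added to this comparison after their values were seen, were higher by 3.15 for Hoxc4 (adjusted p = 0.0113), 2.38 for Hoxc6 (adjusted p = 0.00806) and 2.57 for Hoxc8 (adjusted p = 0.000125). Leaving out 1 array at a time lost the calls of Ddc and Hoxc4 without CA10 thymus 2 (adjusted p = 0.0514 for each) and lost those of Pbx3, Klhl4, Fbp1, Hoxc6 and Hoxc8 in 0 of 14 settings. All these settings kept wild-type arrays in the spread estimate. With only the NHD13 and CA10 arrays in the model, 2 of the 33 calls were kept, so most genes named here lost theirs.

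The HOXA genes gave a different picture. Hoxa9 was at 6.78, 8.35 and 11.66 in NHD13 thymus, against 11.16, 9.18, 5.78 and 11.16 in CA10 thymus, and the difference was -0.39 (SE 1.16, adjusted p = 0.931). Both lines were scattered, and the SE of the difference was above 1 log2 unit. Hoxa7 was 1.14 higher in NHD13 (SE 0.25, adjusted p = 0.106) and Hoxa10 0.09 higher (SE 0.97, adjusted p = 0.983). Meis1 was at 6.78, 7.27 and 5.09 in NHD13 thymus, against 9.57, 7.75, 6.65 and 9.05 in CA10 thymus, a difference of -1.88 (SE 0.62) with an adjusted p of 0.326. Of the 6 largest falls against wild type, limma called 0 against CA10, with differences from -3.18 for Ms4a1 to -1.93 for Gimap8 and adjusted p of 0.0597 to 0.223. All 6 were lower at an unadjusted p under 0.05, as were 552 of all 15310 genes, but they were chosen on the same 3 NHD13 arrays, so this is no independent support. Cd69 was at 6.10, 6.27 and 4.42 in NHD13 thymus, against 7.98, 9.26, 6.24 and 8.76 in CA10 thymus, where CA10 thymus 3 lay below NHD13 thymus 2. With wild-type thymus 2 and 6 left out of the spread estimate, Ms4a1 (adjusted p = 0.00596), Gimap6 (adjusted p = 0.0406) and Hoxa7 (adjusted p = 0.0183) passed. Without CA10 thymus 3 alone, Gimap6 (adjusted p = 0.0395) and Gimap8 (adjusted p = 0.0312) passed.

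The last comparison asked whether the NHD13 effect in thymus differed from that in whole marrow, where 3 NHD13 marrows were set against 6 wild-type marrows. The 2 effects share no arrays. Wild-type marrows titled C57B6 were left out of these 6, but they and the CA10 marrows entered the spread estimate of the test within marrow. Between C57B6 and the 6, limma called 6 of the 61 thymus rises and 16 of the 56 falls, beside 2946 of all 15310 genes. Of the 50 genes with the largest C57B6 differences in marrow, limma called 0 between NHD13 and wild-type thymus. Without wild-type thymus 2 and 6 it called 2 of them. The shares of all genes called were 0.764% and 3.98% in these settings. The part of strain background in the marrow and thymus differences was not tested. Of the 61 genes that rose in thymus, 9 were also called higher in NHD13 whole marrow and 1, Fbp1, lower, beside 1.18% of all genes called there, 0.607% higher and 0.575% lower. The 9 were Hoxa9, Pbx3, Klhl4, Myl10, Hoxc4, Hoxc8, Plagl1, Mab21l2 and Bambi. In marrow Hoxa9 averaged 9.52 ± 0.60 in NHD13 (SD, n = 3) and 5.70 ± 0.66 in wild type (SD, n = 6), a difference of 3.83 (adjusted p = 4.13e-06). Pbx3 averaged 10.32 ± 0.43 in NHD13 marrow and 7.50 ± 0.56 in wild-type marrow, and Klhl4 6.67 ± 0.72 in NHD13 marrow and 3.24 ± 0.10 in wild-type marrow. Of the 56 falls, 2 were called lower in marrow too, Ms4a1 (-2.86, adjusted p = 0.000516) and Ighm (-3.26, adjusted p = 2.21e-07).

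The test of the difference between the tissues called 35 genes (0.229%), 22 with a higher (0.144%) and 13 with a lower effect in thymus (0.0849%). Without wild-type thymus 2 and 6 it called 371 (2.42%), 98 with a higher (0.64%) and 273 with a lower effect (1.78%). The genes named next were chosen by their difference on these same thymus arrays. A large thymus effect was thus built in, and their calls are no independent support. Fbp1 rose in thymus and was 1.03 lower in NHD13 marrow, and its effects differed by 5.07 (SE 0.67, adjusted p = 0.000587). Olig3 averaged 3.94 ± 0.12 in NHD13 marrow and 4.22 ± 0.23 in wild-type marrow, and its effects differed by 3.86 (SE 0.50), a description, since it entered the test through NHD13 thymus alone. The effects on Ddc differed by 3.39 (SE 0.67, adjusted p = 0.033), a call that was lost without NHD13 thymus 2 or 3 and without wild-type thymus 1, 3, 5 or 7 (adjusted p of 0.0503 to 0.0772). Cd69 and Gimap6 fell in thymus and differed by 0.32 and 0.20 in marrow, so that their effects differed by -3.54 (adjusted p = 0.00659) and -3.13 (adjusted p = 0.00653). For Hoxa9, Pbx3 and Klhl4 the effects differed by 1.20, 1.95 and 0.94, with adjusted p of 0.864, 0.331 and 0.788. In lineage-negative marrow, which holds immature cells, limma called 0 of the 61 rises and 0 of the 56 falls, beside 9 genes called in all (0.0588%). At an unadjusted p under 0.05, 5 of the rises were higher and 4 lower there, and 4 of the falls were lower and 1 higher, beside 58 higher and 448 lower of all 15310 genes.

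**Figure D4:**
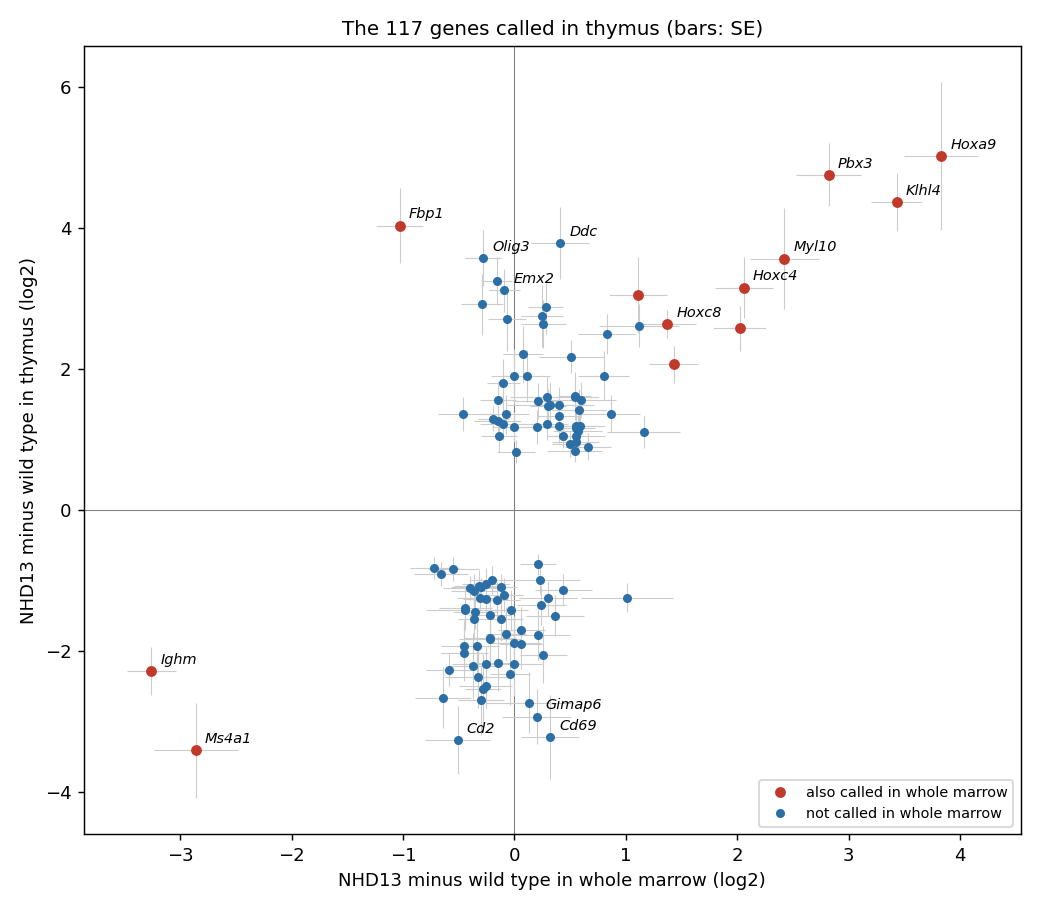
NHD13 minus wild-type log2 difference in thymus (vertical axis) against that in whole marrow (horizontal axis) for the 117 genes called in thymus, with SE bars. Red points were called in marrow as well. Hoxa9, Pbx3 and Klhl4 lie high in both tissues, Ms4a1 and Ighm low in both, and Olig3, Emx2, Ddc, Cd69 and Gimap6 near 0 in marrow. The genes were chosen by their thymus difference, so the gap around 0 on the vertical axis comes from that choice. Olig3 and Emx2 passed the filter on low signals only through NHD13 thymus, so their place near 0 in marrow follows from that selection.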

How the data were processed

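Trizol RNA of mouse thymus was biotin-labelled from 100 ng, per the labels. The values analysed are log2 signals that the authors deposited after RMA, the method the submitters' processing notes name without a version. The table has 57 arrays and 44943 probe sets (range 2.58 to 14.65). The 34842 probe sets naming 1 gene were kept, each of 18165 genes was read from its probe set with the highest mean, and the 15310 genes above the 40th percentile of their array on at least 3 arrays were tested.

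All 14 thymus arrays entered 1 model in limma 3.58.1 (lmFit, eBayes; R 4.3.3), with a mean each for NHD13 (3), CA10 (4) and wild type (7) and no covariate. The contrast of tissues used NHD13 and wild-type thymus and whole marrow. Benjamini-Hochberg adjustment ran over the 15310 genes, and genes under 0.05 were called. The number of arrays limits the precision. Named genes are the 15 largest rises and 15 largest falls among called genes whose groups do not overlap, called genes at background in wild type, and members of 32 gene lists. Members and lists were chosen with earlier results of these data known. Same-numbered NHD13 and wild-type arrays were checked for pairing by the correlation of their deviations from the group means. Alternatives covered the arrays used, filter, probe set, normalization, variance model and covariates.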

Additional observations from a re-analysis of the deposited data

Results flagged for a closer look

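In 21 of the 73 genes examined, 1 wild-type thymus array stood apart from the other 6, with a gap to the nearest array beyond Dixon's 95% limit for 7 samples, which chance passes in about 1 of 20 groups. In 17 of these the array was wild-type thymus 2. It read low for the thymocyte genes Rag1 (4.06), Rag2 (4.99), Ptcra (4.71), Cd4 (8.74), Cd8a (7.54), Cd8b1 (8.11), Ccr9 (6.62), Bcl2l1 (8.71), Cd3d (10.13), Satb1 (9.47), Bcl11b (8.61), Cd69 (7.34), Egr2 (6.11) and Egr1 (8.30). It read high for the B cell genes Ms4a1 (10.53) and Cd79a (10.04) and for Erg (6.78). In 4 genes the array was wild-type thymus 6, the one with a narrow spread of signals. There Hoxc5 (5.69) and Hoxd13 (5.81) were high, and Pbx3 (4.29) and Angpt1 (5.32) low.

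Of 16 genes examined for a different NHD13 effect in thymus and whole marrow, 5 passed limma's interaction test. Most of the 16 were the largest rises and falls in thymus, chosen on these same thymus arrays. A large thymus effect was thus built in, and passing is no independent support. The thymus effect minus the marrow effect was 5.07 for Fbp1 (adjusted p = 0.000587), 3.86 for Olig3 and 3.39 for Ddc (adjusted p = 0.033). It was -3.54 for Cd69 (adjusted p = 0.00659) and -3.13 for Gimap6 (adjusted p = 0.00653). Olig3 passed the filter on low signals only through the NHD13 thymuses, so its value is a description.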

How the results depend on the processing

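The count of genes called between NHD13 and wild-type thymus, 117 with all arrays, ran from 42 to 317 when 1 array was left out, lowest without NHD13 thymus 1 and highest without wild-type thymus 2. It was 42 without NHD13 thymus 1, 64 without NHD13 thymus 3, 47, 74, 53, 53 and 44 without wild-type thymus 1, 3, 4, 5 and 7, 317 without wild-type thymus 2 and 199 without wild-type thymus 6. The count was 610 without wild-type thymus 2 and 6, 219 after quantile normalization, 543 in a model of all 57 arrays, 4450 with array weights (gene-by-gene method, as the default did not converge) and 46 with RNA integrity as a covariate (Gapdh 3′ probe set minus its 5′ one). Chosen after the data were seen, leaving out CA10 thymus 3 as well gave 1637, and NHD13 thymus 2 in addition 1453. The Gapdh measure was -0.10, 0.04 and -0.06 on NHD13 thymus 1 to 3 and 0.03 to 0.59 on the wild-type thymuses, so that covariate is partly confounded with genotype. Hoxa9 also lost its call without a filter (adjusted p = 0.0508), with sex as a covariate (0.053), with the mean of its probe sets (0.0737) and with the RNA integrity covariate (0.066).

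Against CA10, 33 calls became 155 without wild-type thymus 2 and 6, 2 with only the groups compared, 217 with all 57 arrays, 538 with array weights and 18 with the Gapdh covariate. They ran from 11 (without CA10 thymus 2) to 86 (without wild-type thymus 6) when 1 array was left out, CA10 arrays included after the data were seen, and were 526 and 597 in the settings added later. For the tissue contrast, 35 calls became 371 without wild-type thymus 2 and 6, 65 after quantile normalization, 57 with all arrays, 1714 with array weights, 60 with sex and 18 with wild-type whole marrow 1 to 3 only. They ran from 22 to 224 when 1 array was left out, and were 365 without wild-type thymus 2 and 6 and NHD13 thymus 2, a setting added later. With the replicate number as a block, 0 genes passed between NHD13 and wild type, 0 against CA10 and 3 in the tissue contrast. That fit kept only the arrays numbered 1 to 3 in each group. Not every array correlated best with its own number (NHD13 thymus 1 correlated at -0.26 with its own number and 0.20 with wild-type thymus 2), so the block reflects a shared number only.

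Of the single-gene values, 2209 kept direction and side of the threshold over all settings, 251 lost and 194 gained a call, and 62 changed sign; the sign changes by setting follow, and their causes were not tested. On other probe sets the NHD13 minus wild-type difference was -0.23 for Ddc, -0.22 for Hoxa10, -0.08 for Meis1, -0.13 for Erg, -0.17 for Hoxd13 and 0.13 for Ighm. Without wild-type thymus 2 and 6 it was -1.32 for Rag1, -0.10 for Ptcra and -0.16 for Nup98. Without CA10 thymus 3 in addition these 3 were the same (-1.32, -0.10 and -0.16), and without NHD13 thymus 2 as well it was -0.88 for Rag1, -0.10 for Nup98 and -0.25 for Meis1. After quantile normalization it was -0.11 for Hoxa5, -0.14 for Rag1 and -0.03 for Nup98. With array weights it was -0.71 for Rag1 and -0.08 for Nup98, with sex -0.02 for Rag1, with the replicate block -0.22 for Nup98 and with probe sets averaged -0.08 for Hoxd13. When 1 array was left out it ran from -0.08 to 0.44 for Hoxa5, -0.15 to 0.94 for Meis1, -1.23 to 0.44 for Rag1, -0.04 to 1.13 for Ptcra, -0.11 to 0.17 for Nup98 and -0.20 to 0.18 for Hoxd13. Ddc and Ighm were called on their brightest probe sets. Rag1 passed at -1.32 (adjusted p = 0.0157) and -0.88 (adjusted p = 0.0194) in the 2 settings added later.

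Against CA10, Hoxa9 was 0.07 with the Gapdh covariate, 0.22 with the replicate block and -1.76 to 0.68 with 1 array left out. Hoxa10 was -0.11 with probe sets averaged, -1.59 with array weights, -0.55 without wild-type thymus 2 and 6 and CA10 thymus 3, and -1.37 to 0.94 with 1 array left out. In the tissue contrast with array weights, Hoxa9 was -0.32, Hoxa10 -0.81 and Meis1 0.23. Hoxa5 was -0.06 with probe sets averaged, -0.29 with the replicate block and -0.51 with wild-type whole marrow 1 to 3 only. With 1 array left out, Hoxa9 ran from -0.16 to 2.28, Hoxa10 from -0.89 to 1.42 and Meis1 from -0.70 to 0.38.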

Other observations

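Some called genes fell outside the rule for named genes and were chosen after their values were seen. Angpt1, a ligand of the Tie2 receptor made by blood progenitors and stroma, was at 8.88, 9.28 and 8.23 in NHD13 thymus, against 5.32 to 6.80 in wild type (difference 2.50, SE 0.28, adjusted p = 0.000547). Myc, the growth-promoting transcription factor, was at 8.71, 8.74 and 8.59 in NHD13 thymus, against 6.81 to 7.89 in wild type (difference 1.18, SE 0.24, adjusted p = 0.0376). Dnmt3b, a DNA methyltransferase active in embryonic cells, was at 8.05, 8.68 and 8.22 in NHD13 thymus, against 6.16 to 7.17 in wild type (difference 1.60, SE 0.29, adjusted p = 0.0241). The SD over the NHD13 arrays was 0.53 for Angpt1, 0.08 for Myc and 0.33 for Dnmt3b. In whole marrow their differences were 0.83, 0.20 and 0.54, with adjusted p of 0.161, 0.575 and 0.266.

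Among the falls, Gimap3 and Gimap5 joined the Gimap genes already given, with differences of -1.93 and -1.50 (adjusted p = 0.0288 for each). Lta, a cytokine of the lymphotoxin pair with Ltb, was at 4.84, 5.18 and 4.44 in NHD13 thymus, against 5.86 to 7.05 in wild type (difference -1.44, SE 0.25, adjusted p = 0.0175). Traf1, an adaptor of tumour necrosis factor receptors, was at 5.22, 6.44 and 5.62 in NHD13 thymus, against 6.95 to 8.66 in wild type (difference -2.02, SE 0.40, adjusted p = 0.0319). When 1 array was left out, Angpt1 kept its call in all 10 settings, whereas Myc lost it in 7, Dnmt3b in 5, Gimap3, Gimap5 and Traf1 in 6 each and Lta in 2.

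In spleen of leukaemic NHD13 mice (n = 6) Pbx3 averaged 10.91 ± 0.38 and Klhl4 7.26 ± 1.51, against 7.66 ± 0.04 and 4.06 ± 0.22 in wild-type spleen (SD, n = 2). Olig3 averaged 4.16 ± 0.06 in those leukaemic spleens and 4.19 ± 0.12 in wild-type spleen, and Emx2 3.36 ± 0.16 in leukaemic spleens and 3.28 ± 0.18 in wild-type spleen. These spleen values are given without a test. Olig3 and Emx2 passed the filter on low signals only through the NHD13 thymuses, so their low values in spleen follow from that selection.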
